A study of Mus musculus with 6 samples.

Results

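The genes described here are 38 nucleolar factors of ribosome biogenesis, chosen by name and read as rows of the authors' TPM table. The table holds 24054 genes, and all 38 members have a row. TPM, a share of transcripts on a fixed total per library, scales reads to transcript length and to the library. RNA-seq of messenger RNA gave 6 libraries from spleen cells collected, after lysis of red cells, with magnetic beads against c-Kit (CD117), a receptor of blood stem and progenitor cells. Each library came from 1 mouse, and all mice carried an internal tandem duplication of the Flt3 receptor gene on both alleles (Flt3ITD/ITD). Acute myeloid leukaemia (AML) had arisen in 3 mice, described as moribund, that were Dnmt3afl/- with MxCre, a recombinase under an interferon-inducible promoter that is active in more than blood cells. The 3 control mice, with a myeloproliferative neoplasm (MPN), were Dnmt3afl/fl, and their titles name no Cre. Dnmt3a encodes a de novo DNA methyltransferase, so the comparison asks what differs with its loss on a Flt3-ITD background. Genotype, Cre and disease changed together between the groups, and their parts cannot be told apart. The labels used here give no age and no test of Cre excision in the cells.

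Ribosomes are assembled in the nucleolus. RNA polymerase I copies the ribosomal DNA into a long precursor, small nucleolar ribonucleoproteins (snoRNPs) methylate it and convert uridines to pseudouridine, and large assemblies fold and cut it into the RNAs of the small and the large subunit. Box C/D snoRNPs carry the methyltransferase fibrillarin, and box H/ACA snoRNPs carry the pseudouridine synthase dyskerin. Output of the pathway is matched to growth, and many of its genes are textbook targets of the Myc transcription factors, which bind the E-box CACGTG as dimers with Max.

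Promoter windows of 300 bases, 250 before and 50 after the start site, were found for 32 of the 38 members in RefSeq (GRCm38.p6). CACGTG, which reads the same on both strands, occurred in a window of 6 of these 32 genes (18.8%). Its share was 17.1% among 105 other ribosome biogenesis genes and 11.9% among 9224 tested genes that matched the table. By single windows, it occurred in 16.7% of the 36 windows of the members, in 10% of the 11706 windows of tested genes and in 7.15% of all 32851 windows. The related letters CGCGTG, searched on both strands as CGCGTG and CACGCG, occurred in 9 of the 32 members (28.1%). Their share was higher among the 105 other ribosome biogenesis genes, at 36.2%, and was 19.8% among the 9224. A match is only a match of letters. The matches are shown because Myc and Mycn were higher in the AML mice. Nop2 and Imp4 have theirs upstream of the start site, and the stretch of Rrp1b, the member with the largest fold change, holds none. CACGTG is in capitals.
Nop2 (chr6:125131733-125131882, plus strand, 150 to 1 bases before the start): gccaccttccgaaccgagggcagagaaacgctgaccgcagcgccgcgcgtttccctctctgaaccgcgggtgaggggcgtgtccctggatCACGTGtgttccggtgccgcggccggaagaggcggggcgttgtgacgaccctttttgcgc
Imp4 (chr1:34439679-34439828, plus strand, 150 to 1 bases before the start): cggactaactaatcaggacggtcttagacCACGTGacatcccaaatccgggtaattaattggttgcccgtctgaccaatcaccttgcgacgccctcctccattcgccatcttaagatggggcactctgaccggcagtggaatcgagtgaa
Rrp1b (chr17:32035950-32036099, plus strand, 212 to 63 bases before the start): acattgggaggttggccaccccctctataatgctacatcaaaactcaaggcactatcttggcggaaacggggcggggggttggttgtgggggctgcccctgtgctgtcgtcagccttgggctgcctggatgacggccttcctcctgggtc
In the other 4 members the match lies just past the start site, and only the bases next to it are given.
Utp20 (chr10:88826765-88826786, minus strand): cactaactaCACGTGaggaaaa
Wdr43 (chr17:71616223-71616246, plus strand): ccgggcgaaCACGTGgctgccgcg
Pes1 (chr11:3963968-3963991, plus strand): taggcagggCACGTGcgggaggaa
Mybbp1a (chr11:72441358-72441376, plus strand): ttctgagccCACGTGtttg

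Several members also carry the guide RNAs of the pathway inside their own genes. In GENCODE M21 (GRCm38), 6 of the 38 members (15.8%) hold at least 1 snoRNA gene on the same strand, 19 in all. The share among 11185 tested protein-coding genes was 1.81%. The hosts are Ncl, Nop56, Nop58, Dkc1, Wdr43 and Gnl3. The guides below lie in 3 of them. They are shown because the box C/D proteins described further on bind such RNAs. Capitals mark the letters TGATGA (box C) near the left end and CTGA (box D) near the right end. TGATGA occurs in 26.1% of the 1507 snoRNA transcripts of the annotation.
Snord110 in Nop56 (chr2:130275506-130275573, plus strand): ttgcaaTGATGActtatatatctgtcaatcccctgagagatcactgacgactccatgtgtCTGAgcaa
Snord69 in Gnl3 (chr14:31014287-31014366, minus strand): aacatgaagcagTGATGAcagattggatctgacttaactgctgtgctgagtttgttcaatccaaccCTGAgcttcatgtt
Snord82 in Ncl (chr1:86356261-86356330, minus strand): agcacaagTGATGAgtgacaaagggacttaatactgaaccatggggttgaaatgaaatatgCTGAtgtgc
The mature guides are not seen in these data: 10 of the 19 hosted snoRNAs have a row in the TPM table, and all 10 are listed at 0 in every library.

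Dnmt3a mRNA stood at 11.5, 13.5 and 12.9 TPM in AML replicates 1 to 3 and at 33.9, 29.3 and 33.4 TPM in MPN replicates 1 to 3, so the groups did not overlap. Relative depth, read from the steps between low values of the deposited RPKM table, ran from 0.738 to 1.30 over the libraries. Across tested genes Pearson's r was 0.949 to 0.975 among AML libraries and 0.982 to 0.992 among MPN libraries. Kit was at 99.2 to 129.7 TPM in AML and 144.7 to 152.0 TPM in MPN. Of 6 progenitor markers, 5 rose in AML, while Kit itself did not pass, at a log2 fold change of -0.31. Among 4 megakaryocyte markers, 2 rose. Of 5 mast cell markers, Cpa3 rose, Hdc did not pass and 3 were too low to test, and of 4 stromal and endothelial markers, Pecam1 rose and 3 were too low to test. Markers of mature cells were lower in AML. Past the threshold were 5 of 6 macrophage, 3 of 4 tested B cell and 6 of 7 T and NK cell markers. So were 3 of 5 dendritic cell and 5 of 6 neutrophil markers. Among all tested genes 20.1% were called higher in AML and 10% lower. Summed levels were 16.7 to 33.5 TPM in AML against 95.3 to 187.7 TPM in MPN for macrophage markers, and 2215 to 6169 TPM against 8773 to 14838 TPM for neutrophil markers. The macrophage markers C1qa, C1qb, C1qc and Mertk were listed at 0 in at least 1 AML library. In bulk samples fewer cells of a type and less RNA per cell cannot be told apart, and the part of this shift in the results below was not tested. The sex of the animals was read from Xist and Ddx3y: AML replicates 1 and 2 were female, and AML replicate 3 and all MPN mice were male.

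The nucleolar genes were higher in the AML mice. Of the 38 members, 31 rose, 0 fell and 7 did not pass the limma threshold, an adjusted p of 0.05 over all 12223 tested genes. Among all tested genes, 20.1% were called higher and 10% lower, or 30.1% in either direction. All 38 log2 fold changes were above 0, where 61.4% of all tested genes were. In 36 members every AML library lay above every MPN library, a pattern found in 34.8% of all tested genes, while 50.9% showed no overlap in either direction. The changes were modest in size. Log2 fold changes on the log2(TPM + 1) scale ran from 0.31 to 1.13, with a median of 0.64 against 0.13 for all tested genes. As a ratio of mean TPM the members ran from 1.23 to 2.25, with a median of 1.57. A log2 fold change of at least 1 was reached by 2 members, Rrp1b and Gnl3, or 5.26% of them, against 7.35% of all tested genes that were called higher at that size. Of the 31 calls, 30 ended when a term for sex was added to the fit, with all 38 estimates still above 0. In that fit 5.51% of all tested genes were called higher. With libraries shifted to an equal median, 31 members again passed as higher, against 17.8% of all tested genes, and their median was 0.56.

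**Figure D1:**
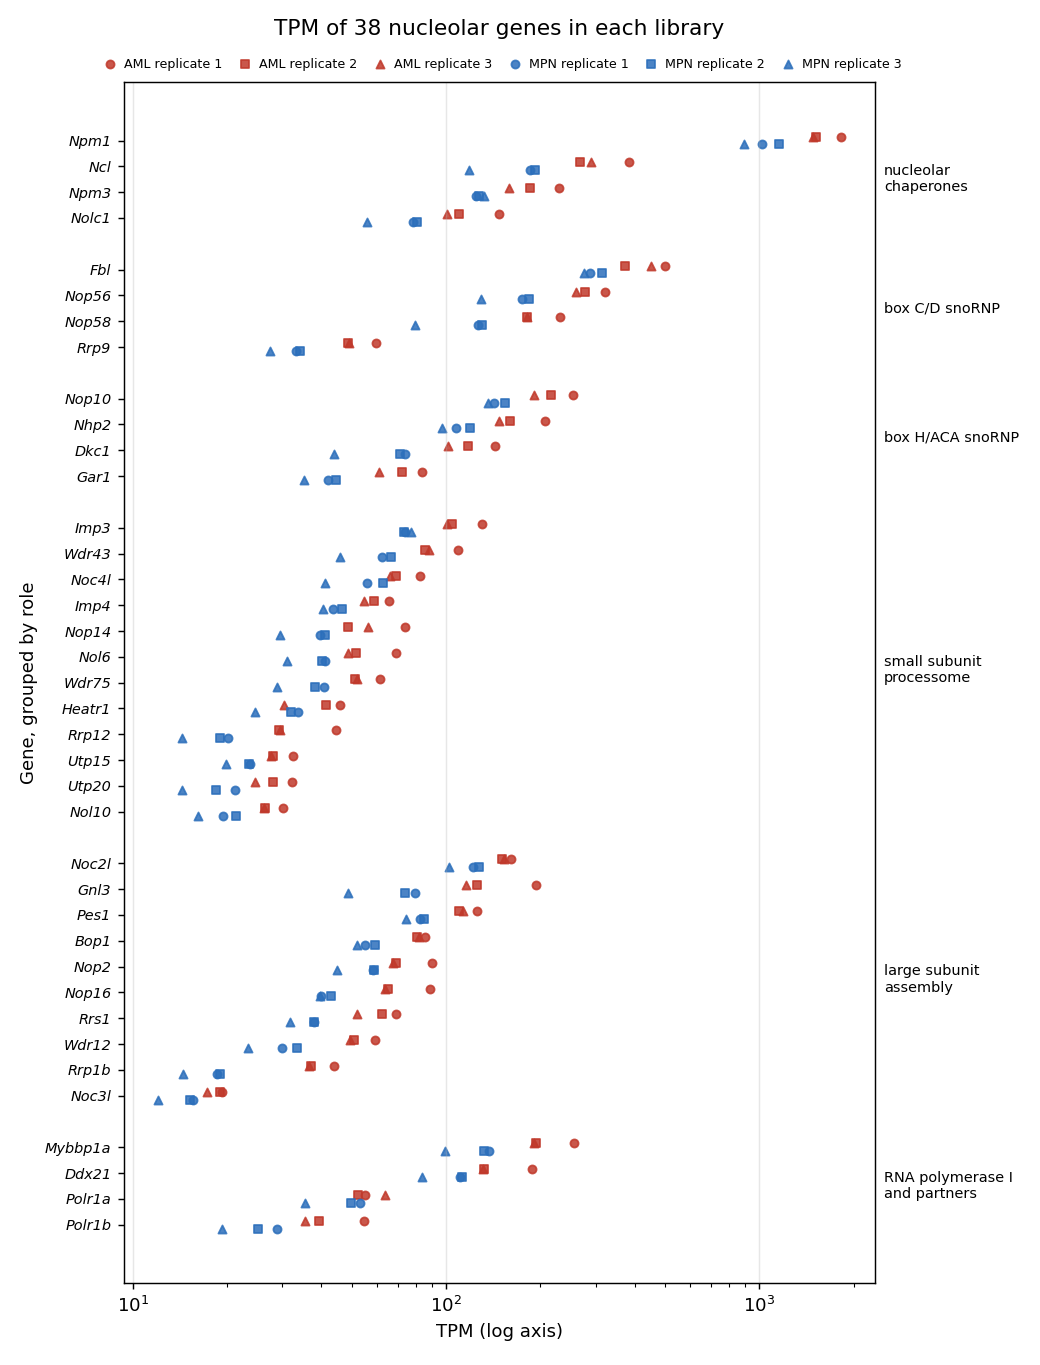
TPM of each of the 38 members (log axis) in the 3 AML libraries (red) and the 3 MPN libraries (blue), with a marker shape per replicate and the genes grouped by role. The red points lie to the right of the blue ones in 36 of the 38 genes, Heatr1 and Polr1a being the exceptions.

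**Figure D2:**
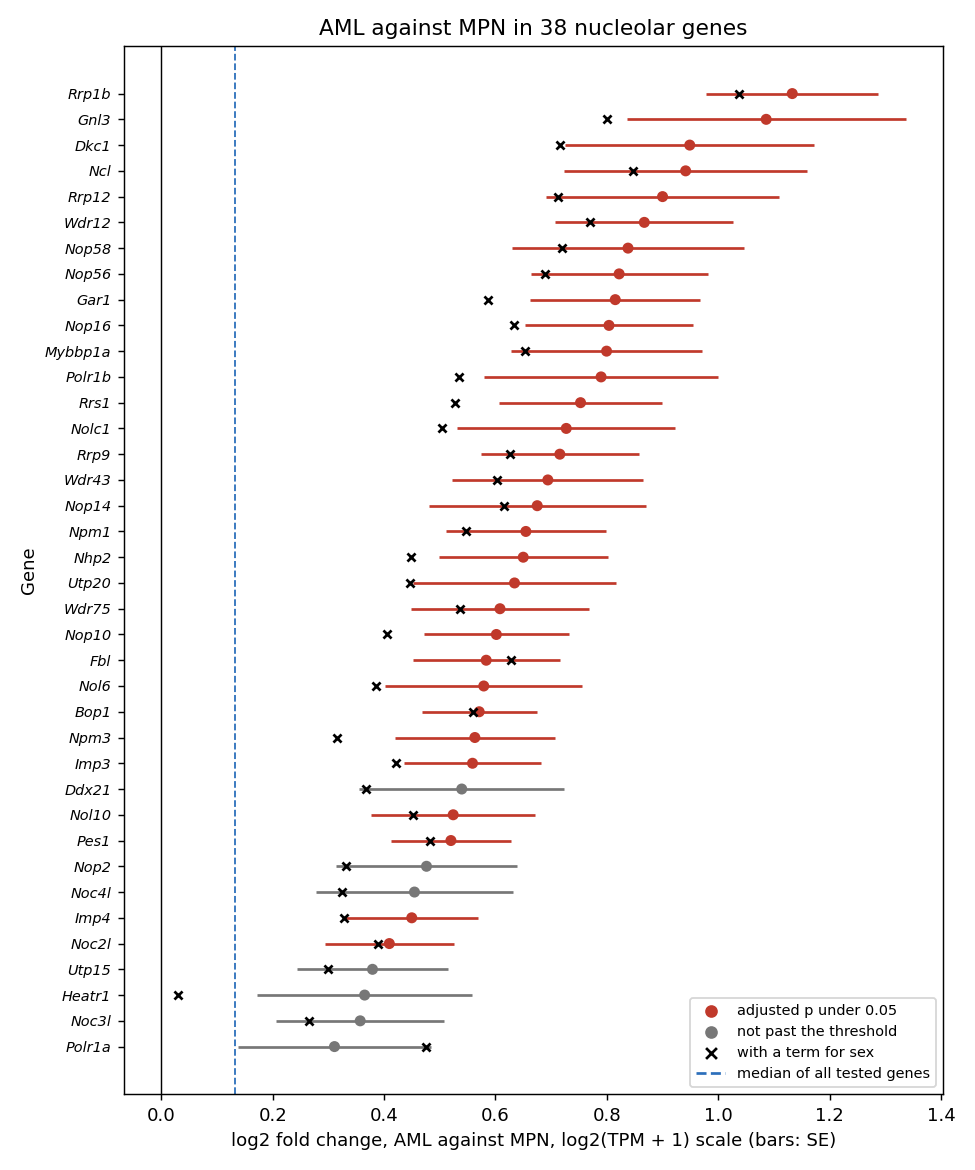
Log2 fold change of AML against MPN for each member on the log2(TPM + 1) scale, with bars of 1 SE, red where the limma adjusted p was under 0.05 and grey where it was not. Crosses give the estimate with a term for sex, and the dashed line at 0.13 is the median of all tested genes. All points lie above 0.

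Taken as a whole, the members made up 0.665%, 0.534% and 0.526% of all TPM in AML replicates 1 to 3 and 0.374%, 0.396% and 0.309% in MPN replicates 1 to 3. The means were 0.575% ± 0.0782 in AML and 0.360% ± 0.0456 in MPN (SD, n = 3 each), a ratio of 1.60. The lowest AML library stood above the highest MPN library. Ncl and Npm1 together took 32.1% to 34.0% of the members' TPM in every library. Single members shifted within the total, as their ratios of mean TPM ran from 1.23 to 2.25. The order of the members by mean TPM was close in both groups, with a Spearman rho of 0.98 across the 38 genes, which share libraries and are not independent.

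The chaperones and phosphoproteins of the nucleolus, Ncl, Npm1, Npm3 and Nolc1, all rose. Npm1 (ENSMUSG00000057113) encodes nucleophosmin, a chaperone of histones and ribosomal particles whose human counterpart is often mutated in AML. It had the highest level of all members, at 1821, 1519 and 1486 TPM in AML replicates 1 to 3 and 1018, 1157 and 893 TPM in MPN replicates 1 to 3. Its groups did not overlap, and its log2 fold change was 0.65 ± 0.14 (SE) with a limma adjusted p of 0.0143. Ncl encodes nucleolin, an RNA-binding protein of ribosomal DNA and its transcripts. It stood at 384.0, 268 and 291 TPM in AML and 185, 192 and 118 TPM in MPN, with a log2 fold change of 0.94 ± 0.22 (adjusted p = 0.0174). Nolc1, a chaperone of snoRNPs, reached 148, 110.0 and 101 TPM in AML against 78.7, 80.8 and 55.9 TPM in MPN (log2 fold change 0.73 ± 0.20, adjusted p = 0.0293). Npm3, a relative of Npm1, had a smaller log2 fold change of 0.56 ± 0.14 (adjusted p = 0.0240), at 159 to 230 TPM in AML and 125 to 132 TPM in MPN. AML replicate 1 was the highest library for all 4 genes.

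All 4 members listed under box C/D snoRNPs rose, with log2 fold changes of 0.58 to 0.84. Fbl encodes fibrillarin, the methyltransferase that modifies the ribose of ribosomal RNA at sites set by guides such as the 3 printed above. Its mRNA was at 499, 373 and 452 TPM in AML and 289, 314 and 275 TPM in MPN (log2 fold change 0.58 ± 0.13, adjusted p = 0.0160). Nop56 and Nop58, the paired scaffold proteins of the particle, had larger changes. Nop56 was at 322, 277 and 260 TPM in AML against 175, 183 and 129 TPM in MPN (0.82 ± 0.16, adjusted p = 0.00900). Nop58 was at 230, 182 and 181 TPM against 127, 130 and 79.3 TPM (0.84 ± 0.21, adjusted p = 0.0221). Rrp9, which binds the U3 snoRNA that directs the first cuts of the precursor, had a log2 fold change of 0.72 ± 0.14 (adjusted p = 0.00973), at 48.6 to 60.0 TPM in AML and 27.5 to 34.2 TPM in MPN. In none of the 4 genes did an MPN library reach an AML library.

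The box H/ACA snoRNP proteins rose as well, 4 of 4. Dkc1 encodes dyskerin, the pseudouridine synthase of these particles and a part of telomerase. It stood at 143, 118 and 102 TPM in AML and at 74.1, 71.4 and 43.8 TPM in MPN, with a log2 fold change of 0.95 ± 0.22 (adjusted p = 0.0183). Gar1, Nhp2 and Nop10 are the small partners that bind dyskerin and the guide RNA. Gar1 was at 83.5, 72.5 and 61.2 TPM against 42.0, 44.6 and 35.2 TPM (log2 fold change 0.82 ± 0.15, adjusted p = 0.00800). Nhp2 and Nop10 had log2 fold changes of 0.65 and 0.60, with adjusted p of 0.0179 and 0.0134. In all 4 genes AML replicate 1 was the highest and AML replicate 3 the lowest AML library, still above the MPN mice.

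Among 12 genes of the small subunit processome, the assembly that folds and cuts the precursor around the U3 snoRNA, 9 rose and 3 did not pass. Their median log2 fold change was 0.57. Rrp12, a repeat protein that accompanies pre-ribosomes out of the nucleolus, had the largest, at 44.7, 29.3 and 29.6 TPM in AML and 20.1, 19.0 and 14.4 TPM in MPN (0.90 ± 0.21, adjusted p = 0.0176). Wdr43, of the group of proteins that joins the precursor as it is transcribed, stood at 109, 85.5 and 87.9 TPM against 62.4, 66.5 and 45.9 TPM (0.69 ± 0.17, adjusted p = 0.0218). Its partner Wdr75 had a log2 fold change of 0.61 ± 0.16 (adjusted p = 0.0268). The other members in that group were not past the threshold, while Cirh1a, a further partner counted below among the other small-subunit factors, rose by 0.84 (adjusted p = 0.0176). Utp15 had a log2 fold change of 0.38 ± 0.14 (adjusted p = 0.0715), without overlap of the groups. Heatr1 was at 45.9, 41.4 and 30.5 TPM in AML and 33.8, 32.0 and 24.5 TPM in MPN, so AML replicate 3 lay below 2 of the MPN libraries (0.37 ± 0.19, adjusted p = 0.186).

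Imp3 and Imp4, which stabilise the pairing of the U3 snoRNA with the precursor, rose by 0.56 ± 0.12 and 0.45 ± 0.12 on the log2 scale, with adjusted p of 0.0148 and 0.0282. Imp4, whose upstream stretch is printed above, was at 66.0, 58.9 and 54.9 TPM in AML and 43.6, 46.6 and 40.5 TPM in MPN. Nop14 and Noc4l bind each other within the processome and were called differently. Nop14 passed at 0.68 ± 0.19 (adjusted p = 0.0369), and Noc4l did not at 0.45 ± 0.18 (adjusted p = 0.0908). Noc4l was at 66.1 to 82.8 TPM in AML and 41.2 to 63.0 TPM in MPN. The difference between the 2 genes was not tested. The remaining members of this role, Nol6, Nol10 and the large scaffold gene Utp20, rose by 0.58, 0.52 and 0.63 on the log2 scale, with adjusted p of 0.0440, 0.0342 and 0.0362.

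Of 10 genes for assembly of the large subunit, 8 rose and 2 did not pass. Rrp1b, a nucleolar protein of large-subunit maturation, had the largest log2 fold change of all members, at 43.8, 37.1 and 36.4 TPM in AML against 18.6, 19.0 and 14.4 TPM in MPN. The change was 1.13 ± 0.15 (adjusted p = 0.00236), and its lowest AML library stood 1.92 times above its highest MPN library, the widest gap among the members. The gene (ENSMUSG00000058392) spans chr17:32036100-32062865 of GRCm38, plus strand. Gnl3 encodes nucleostemin, a nucleolar GTPase known from stem and cancer cells. It was at 194, 125 and 116 TPM in AML and 79.8, 73.8 and 48.6 TPM in MPN (1.09 ± 0.25, adjusted p = 0.0169). AML replicate 1 held 1.68 times the TPM of AML replicate 3, the widest spread within the AML group among the members. The gene (ENSMUSG00000042354) spans chr14:31012433-31019152, minus strand.

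Pes1, Bop1 and Wdr12 form the PeBoW complex, which is needed to cut the RNAs of the large subunit out of the precursor. All 3 rose. Bop1 varied least among the AML mice, at 85.7, 80.8 and 82.1 TPM against 55.2, 59.5 and 51.9 TPM in MPN (0.57 ± 0.10, adjusted p = 0.00701). Pes1 was at 126, 109.9 and 113 TPM against 82.8, 84.9 and 74.4 TPM (0.52 ± 0.11, adjusted p = 0.0117). Wdr12 had the largest change of the 3, at 59.2, 50.8 and 49.5 TPM against 30.0, 33.4 and 23.4 TPM (0.87 ± 0.16, adjusted p = 0.00743). Nop16 and Rrs1, both needed for early steps of large-subunit assembly, rose by 0.80 ± 0.15 and 0.75 ± 0.15 (adjusted p = 0.00798 and 0.00903). Noc2l, a nucleolar complex protein, rose by 0.41 ± 0.12 (adjusted p = 0.0343), with AML libraries at 151 to 162 TPM and MPN libraries at 102 to 128 TPM. Its partner Noc3l did not pass, at 17.3 to 19.3 TPM in AML and 12.1 to 15.6 TPM in MPN (0.36 ± 0.15, adjusted p = 0.112). Nop2, a methyltransferase of ribosomal RNA, did not pass either, at 90.4, 69.3 and 67.9 TPM in AML and 58.6, 59.0 and 45.0 TPM in MPN (0.48 ± 0.16, adjusted p = 0.0632).

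The catalytic core of RNA polymerase I is formed by the products of Polr1a and Polr1b, and the 2 genes gave different calls. Polr1b rose, at 54.8, 39.4 and 35.4 TPM in AML and 28.9, 25.1 and 19.3 TPM in MPN (0.79 ± 0.21, adjusted p = 0.0282). Polr1a had the smallest log2 fold change of the members, at 55.0, 52.2 and 63.8 TPM in AML and 53.3, 49.9 and 35.6 TPM in MPN. Its AML replicate 2 lay below MPN replicate 1, and it did not pass (0.31 ± 0.17, adjusted p = 0.208). The difference between Polr1a and Polr1b was not tested. Polr1a was also the only member for which AML replicate 1 was not the highest AML library. Ddx21, an RNA helicase of ribosomal DNA transcription and precursor processing, did not pass, at 188, 132 and 131.5 TPM against 111, 113 and 83.7 TPM (0.54 ± 0.18, adjusted p = 0.0619). Mybbp1a, a nucleolar regulator of ribosomal RNA synthesis, rose, at 257, 193 and 191 TPM in AML against 137, 132 and 99.1 TPM in MPN (0.80 ± 0.17, adjusted p = 0.0132).

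The value of Mybbp1a has a limit in its position. Its exons overlap those of Spns2, a lipid transporter gene on the opposite strand, over 131 bases, or 2.26% of its exon bases. Spns2 itself rose, with 152 ± 65.7 TPM in AML mice and 9.25 ± 3.17 TPM in MPN mice. The libraries kept strand, but no source used here says whether the counting used it, so reads in the shared bases may be assigned to either gene. Exons of 17 members overlap another gene, always on the opposite strand, and the share of tested protein-coding genes with any exon overlap was 34%. Of the partner genes with a test, Spns2 alone was called. A search by name found 1 pseudogene named after Npm3, so the level of Npm3 is uncertain. Pseudogenes under other names were not searched for, and no sequences were compared. Other members, Npm1 among them, may have the same limit. The members lie on 17 chromosomes, with at most 6 on 1 of them.

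The 6 members that hold snoRNA genes all rose, with log2 fold changes of 0.69 to 1.09 and a median of 0.89. Of the other 32 members, 25 rose, with a median of 0.59. Among all tested genes 20.1% were called higher. Changes of snoRNA host genes outside the members were not summarised. These are descriptions of chosen genes, and the difference between the medians was not tested.

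Other genes of the pathway moved the same way in part. Among 131 ribosome biogenesis genes in 5 further lists, 57 passed as higher and 0 as lower, with a median log2 fold change of 0.41. The share called higher was 43.5%, against 81.6% of the 38 members and 20.1% of all tested genes. With a term for sex 0 of the 57 calls held, the lowest adjusted p being 0.0606, and 120 of the 131 estimates were above 0. Of 13 other genes of RNA polymerase I transcription, 4 rose, including the initiation factor genes Taf1b and Taf1d (log2 fold changes of 0.51 and 0.74) and the polymerase subunit gene Polr1e (0.61). Of 44 other small-subunit factors, 15 rose, among them Wdr46 from 39.0 ± 3.45 to 63.7 ± 1.86 TPM (adjusted p = 0.00455). The helicase gene Ddx49 and Utp11l rose by 0.58 and 0.60. Of 50 other large-subunit factors, 25 rose, among them Rrp15 from 31.6 ± 4.06 to 61.7 ± 11.2 TPM (adjusted p = 0.00627), with Rsl24d1 and Eif6, both of late large-subunit maturation, at 0.73 and 0.55.

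Factors that build snoRNPs and those that trim the precursor included genes that rose too. Of 10 snoRNP assembly genes, 6 rose. They included Ruvbl2, an ATPase of the assembly machinery, from 89.8 ± 12.2 to 162 ± 25.2 TPM (adjusted p = 0.00663), and Shq1, the chaperone of dyskerin, from 9.84 ± 1.59 to 19.5 ± 2.72 TPM (adjusted p = 0.00851). Rpap3 rose by 0.89 on the log2 scale. Of 14 genes of the RNA exosome, which degrades and trims RNA from its end, 7 rose. Exosc2 rose from 41.2 ± 5.69 to 80.4 ± 12.7 TPM (adjusted p = 0.00522), Exosc5 by 0.63 and Mphosph6 by 0.74.

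The genes for the ribosomal proteins themselves showed less. Of 78 such genes, 4 passed as higher, or 5.13% against 20.1% of all tested genes, and 0 as lower. Their median log2 fold change was 0.22, and 74 of the 78 estimates were above 0, where 61.4% of all tested genes were. Rpl15 and Rpl10a, of the large subunit, rose by 0.43 and 0.44 on the log2 scale (adjusted p = 0.0300 and 0.0390), and both calls ended with median scaling, with the RPKM values and with a term for sex. Over the list median scaling left 0 genes called higher and the RPKM values left 1, against 17.8% and 20.5% of all tested genes. The share of all TPM held by the 78 genes was 23.8%, 22.0% and 20.3% in AML and 18.0%, 18.1% and 20.8% in MPN, so AML replicate 3 lay below MPN replicate 3. Many of these genes have near-identical pseudogenes, and their single values are uncertain. That the members and the ribosomal protein genes differ was not tested. Of 18 proliferation genes, Mcm6 and Mcm3, subunits of the replicative helicase, rose by 0.72 and 0.62, and 16 did not pass, with a median of 0.25. Both calls ended with a term for sex. Cdk1, the kinase of mitotic entry, was at 0.55 (adjusted p = 0.0681).

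Of the Myc genes, Myc rose from 79.8 ± 6.29 to 243 ± 36.3 TPM and Mycn from 2.97 ± 0.491 to 76.1 ± 38.3 TPM, with limma adjusted p of 0.000365 and 0.000267. Both calls held with a term for sex (adjusted p = 0.00688 and 0.00423). Mycl was at 133 ± 10.8 TPM in MPN and 58.9 ± 38.9 TPM in AML and did not pass (adjusted p = 0.0561). Summed over the 3 genes the level was 342 to 427 TPM in AML and 203 to 233 TPM in MPN.

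**Figure D3:**
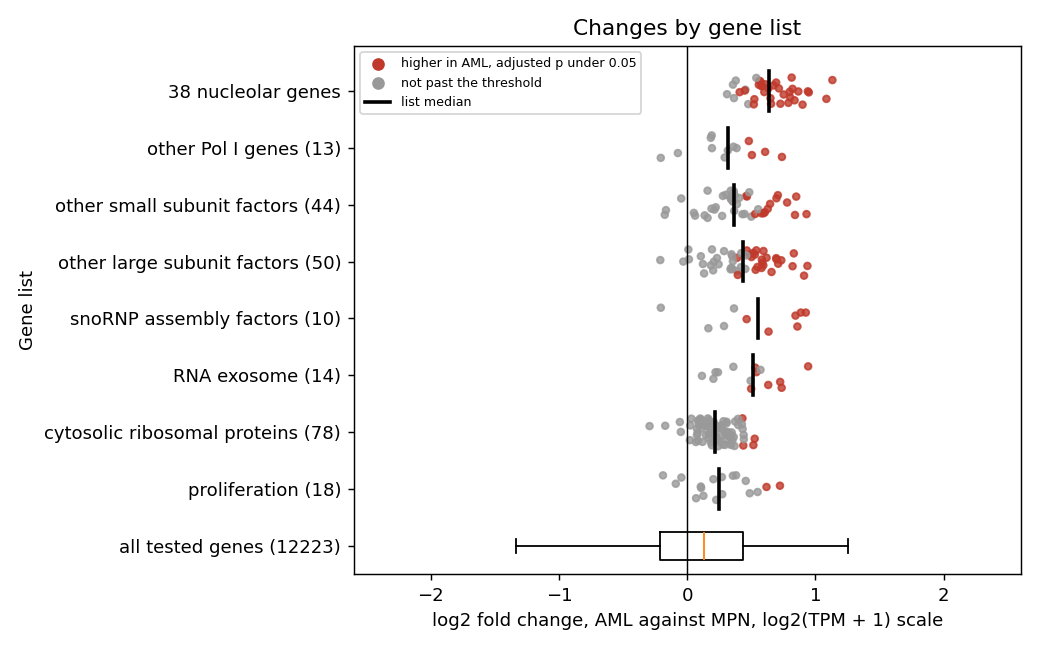
Log2 fold changes (log2(TPM + 1) scale) of the 38 members and of 7 other lists, 1 point per gene, red where called higher in AML and grey where not, with a black line at each list's median. The box for all 12223 tested genes shows the quartiles and whiskers from the 5th to the 95th percentile; the members' median of 0.64 lies above that of each other list shown.

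A single library in each group was the extreme for nearly all members. AML replicate 1 was the highest AML library in 37 of 38 members, where it was so in 48.8% of all tested genes. MPN replicate 3 was the lowest MPN library in 36 of 38, against 65.5% of all tested genes. The other places varied: the lowest AML library was replicate 3 in 27 members and replicate 2 in 11, and the highest MPN library was replicate 2 in 23, replicate 1 in 13 and replicate 3 in 2. Some other gene lists had the same extreme libraries, and others did not. The 131 other ribosome biogenesis genes summed to 9124, 7818 and 7713 TPM in AML replicates 1 to 3. In MPN replicates 1 to 3 they summed to 6390, 6542 and 5600 TPM. Ribosomal protein genes held 18.0%, 18.1% and 20.8% of all TPM in MPN replicates 1 to 3. Summed neutrophil markers were at 2215, 6169 and 4407 TPM in AML replicates 1 to 3. The summed level of 18 proliferation genes was 3246, 2896 and 2456 TPM in AML replicates 1 to 3 and 2515, 2563 and 1950 TPM in MPN replicates 1 to 3, so AML replicate 3 lay below MPN replicates 1 and 2. The summed level of 10 erythroid markers was 1115, 388 and 165 TPM in AML and 1450, 1335 and 709.6 TPM in MPN. Of these markers Klf1 fell and 9 did not pass, while 8 of the 10 were called lower with a term for sex, and Trim10 was listed at 0 in AML replicate 3. AML replicate 1 was thus the highest AML library for the members, the other ribosome biogenesis genes, the proliferation genes and the erythroid markers. MPN replicate 3 was the lowest MPN library for the same lists. Between the groups the erythroid sum ran the other way from the members. The part of the proliferation genes or the erythroid markers in the result was not tested.

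**Figure D4:**
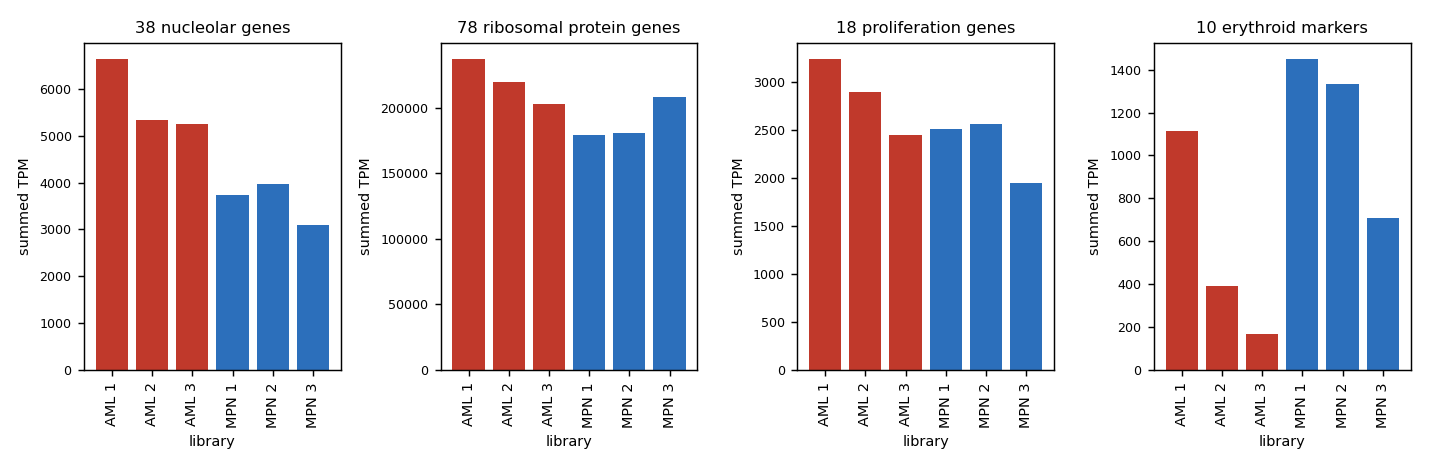
Summed TPM per library (bars from 0, a separate scale in each panel) of the 38 members, 78 ribosomal protein genes, 18 proliferation genes and 10 erythroid markers, with AML in red and MPN in blue. The groups do not overlap for the members and do for the other 3 lists.

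Which members passed depended on single mice. Without MPN replicate 3, 15 of the 38 passed as higher, and without MPN replicate 2, 20 did, against 11.2% and 10.6% of all tested genes. MPN replicate 1 carried a name prefix of its own in the column headers, while the other 5 libraries shared 1 prefix. The prefix was read as a sequencing run, which is an inference. Without MPN replicate 1, 21 members passed, against 12.4%. With a term for sex, which sets the male AML replicate 3 against the male MPN mice, only Rrp1b passed (log2 fold change 1.04, adjusted p = 0.0367), against 5.51% of all tested genes called higher. The direction was kept: all 38 estimates stayed above 0, from 0.03 for Heatr1 to 1.04. Their median was 0.53, against 0.096 for all tested genes. These estimates rest on AML replicate 3 as the only AML mouse, so its own position is no further support. That library lay above all 3 MPN mice in 37 of the 38 members, against 46.3% of all tested genes. Sex and the group cannot be told apart in AML replicates 1 and 2. From the deposited RPKM values, 34 members passed as higher, against 20.5% of all tested genes, with Utp15, Nop2 and Ddx21 added to the 31.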

How the data were processed

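RNA was taken from c-Kit+ splenocytes, selected by poly-A tail and made into stranded TruSeq libraries with paired-end reads, per the labels' protocols. By gene symbol, the authors deposited TPM values as gene-level RSEM output with 1 column per mouse, per the file headers. The RPKM values were deposited by the authors per Ensembl identifier, and 25213 of 25991 matched a symbol. TopHat2, RSEM, Bowtie2, mm9 and mm10 are named per the submitters' processing notes, without role or version. TPM keeps no depth. Relative depth came from the RPKM table, whose low values were whole multiples of 1 read within 0.05 of a step. Groups follow the labels' source names, and replicates are numbered in accession order and pair no mice. Nothing but the mouse numbers says that the samples are separate animals.

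The test took the 12223 genes that reached 1 TPM in 3 or more libraries, all 38 members among them. AML was compared with MPN on log2(TPM + 1) with limma 3.58.1 (R 4.3.3), its mean-variance trend switched on and no covariate. This scale understates changes of low genes. Tests were two-sided, with Benjamini-Hochberg adjustment over all tested genes. The script was tested on simulated data. The members, gene lists, named genes and alternatives were chosen with earlier results of these data known. Named were all members, the 3 genes of each pathway list with the smallest p and the Myc genes, except 1 gene that is not reported here; markers and the overlapping gene Spns2 stand beside results, and Spns2 and Cirh1a were chosen after their values were seen. Alternatives were the RPKM table, a pseudocount of 0.1 or 5, a filter at 5 TPM or none, scaling to equal medians or quantiles, limma with array weights or without its trend, each mouse left out in turn, and a term for sex. Sequences and motif counts are from RefSeq (GRCm38.p6) and GENCODE M21.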

Additional observations from a re-analysis of the deposited data

How the results depend on the processing

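Across 16 alternatives no member changed direction, and the number lower in AML was 0 in each. In the 36 members without overlap of the groups, most of these settings could not turn the sign. Another pseudocount, filter, trend setting or weight, a mouse left out or the term for sex must keep it there. How many of all tested genes kept their direction was not counted. The number of members called higher was 28 to 34 under other pseudocounts, filters, scalings, limma settings and the RPKM table, 15 to 28 with 1 mouse left out, and 1 with a term for sex. All tested genes called numbered 2009 to 3705 with 1 mouse left out and 1208 with a term for sex, which draws the fold change from fewer mice, against 2879 to 5436 under the other alternatives. Of 608 member results under alternatives, 94 lost the call and 3 gained it. Only results of the 31 called members could lose a call, and only those of the other 7 could gain 1. The call of Rrp1b held throughout, and those of 12 members, Npm1, Ncl, Nop56, Dkc1 and the PeBoW genes among them, ended with the term for sex only. The array-weight estimate stopped before it converged; it called 5436 genes, against 3678, lowered the members' median log2 fold change from 0.64 to 0.47 and moved 11 members by over 1.5 times, among them Ncl from 0.94 to 0.60, Nop14 from 0.68 to 0.38 and Noc4l from 0.45 to 0.19. Median scaling lowered the share of higher calls among all called genes from 66.7% to 59.0%. The excess of the members' share of all TPM in AML was 0.215 percentage points, and it was 0.170 to 0.240 with 1 mouse left out and 0.248 in the RPKM table. TPM keeps no read counts, so the depth behind a single gene was not assessed. No paired analysis was run, because the groups are different mice by their mouse numbers and the labels pair none of them.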
